A study of Rattus norvegicus with 6 samples.

Results

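The EGF receptor family and its ligands were described across both culture media of the series, as 10 genes chosen by name: the receptors Egfr, Erbb2 and Erbb3 and the ligands Areg, Ereg, Hbegf, Tgfa, Epgn, Btc and Nrg1. Of these, 9 were measured among the 15037 genes with a named probe set, 3 receptors and 6 ligands, and Epgn was not analysed here. Each measured member had 1 probe set. The cells were airway basal cells from the trachea of Sprague Dawley rats (wild-type males, 12 weeks old), prepared as 3 lines that each pooled 3 rats. Cells of each line were divided on isolation between the media BEGM (bronchial epithelial growth medium) and EpiX, another medium for epithelial cells, and RNA was taken after 8 days, which gave 3 arrays per medium. The labels do not give the EGF content of either medium. The comparison asks how the medium changes cells of the same lines. Levels are the authors' log2 signal per probe set, with the base of the logarithm taken as 2 from the values, and a difference is EpiX minus BEGM on that scale. A gene is said to have risen or fallen only where limma gave a Benjamini-Hochberg adjusted p under 0.05 over all genes tested.

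The EGF receptor and its relatives are receptor tyrosine kinases that pair on binding a ligand and pass the signal to the Ras and MAP kinase pathway and to PI3 kinase. Erbb2 has no known ligand of its own, and Erbb3 has little kinase activity, so both work mainly as partners. The ligands are made as membrane-bound precursors that proteases release from the cell surface. In airway epithelium this system is best known for growth, repair after wounding and mucus production, and neuregulin-1, the product of Nrg1, reaches its receptors on the basolateral side when the epithelial barrier is broken.

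Of 9 measured basal cell markers 3 rose in EpiX, 1 fell and 5 did not pass. Over all genes 2.63% rose and 3.15% fell. The keratin Krt5, also on the list, was not measured. Tp63, the transcription factor of basal cells, was at 12.23 to 12.93 in BEGM and 14.62 to 14.80 in EpiX (adjusted p = 0.00431), and the keratin Krt15 (4.12) and the adhesion molecule Bcam (3.11) also rose, while the glycoprotein Pdpn fell (-2.96). The keratin Krt14 lay between 16.38 and 17.13 over the 6 arrays, and Ngfr, a surface receptor of basal cells, between 4.69 and 5.37, and neither passed. Of 6 measured leukocyte markers 0 passed, with 2 higher in EpiX and 4 lower. The pan-leukocyte gene Ptprc lay between 3.78 and 4.14. Cd68, of the same list, was at 8.65, 9.62 and 10.22 in BEGM and 11.36, 11.08 and 9.17 in EpiX (1.04; adjusted p = 0.4). On the first principal component, with 69.7% of the variance, the BEGM arrays 1, 2 and 3 scored -7.24, -54.8 and -73.2 and the EpiX arrays 53.9, 47.1 and 34.2, so that BEGM array 1 stood apart between the media. Of all 15037 genes, 7489 had lower means in EpiX and 660 fell with the sample number as a block. All 10 fibroblast markers on the list used here were measured and all had lower means in EpiX, with 0 passing the test and 3, Col1a2, Lum and Thy1, falling with the sample number as a block (adjusted p = 0.0405, 0.0441 and 0.00831). Their mean level in BEGM was 6.32, 7.10 and 9.68 and in EpiX 5.38, 5.35 and 5.78, and the log2 of their summed signal was 10.41 to 14.28 in BEGM and 9.10 to 9.72 in EpiX. All 5 smooth muscle markers had lower means in EpiX as well, and 2 fell, Cnn1 (-7.00; adjusted p = 0.00649) and Acta2 (-2.91; adjusted p = 0.0096), while the defining marker Myh11 lay between 4.13 and 4.66 in both media. Their mean level was 7.68, 8.47 and 8.34 in BEGM and 5.91, 6.11 and 5.94 in EpiX, and the log2 of their summed signal was 12.26 to 14.30 in BEGM and 9.78 to 10.02 in EpiX. Of 5 measured secretory and ciliated markers 0 passed, with 1 higher in EpiX and 4 lower. The higher was the secretory gene Scgb3a1, at 5.26, 10.27 and 8.01 in BEGM and 11.63, 13.33 and 15.75 in EpiX. Its difference was 5.72 (adjusted p = 0.0675, and 0.0201 with the block). Scgb1a1 ran from 9.03 to 13.49 in BEGM and from 8.49 to 13.04 in EpiX. The part of these other markers in the differences of the family was not tested. In RNA from whole cultures, fewer cells of a type and less RNA per cell cannot be told apart.

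Within the family, Hbegf was lower in EpiX by 1.15 on the log2 scale and was the 1 measured member of 9 that passed the test, while 5.78% of all genes passed. The receptor Erbb3 had the largest difference, 1.19 higher in EpiX, which did not pass, although it rose when same-numbered arrays were compared within their pair. Egfr, Erbb2 and the other 5 ligands differed by 0.40 or less in either direction and did not pass. The arrays of the media did not overlap for 1 of 9 members, Hbegf, against 28.0% of all genes, and 4 of 9, Erbb2, Erbb3, Hbegf and Btc, differed in 1 direction in all 3 same-numbered pairs, against 46.3% of all genes. With 9 genes these counts are too small to set the family apart from all genes.

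**Figure D1:**
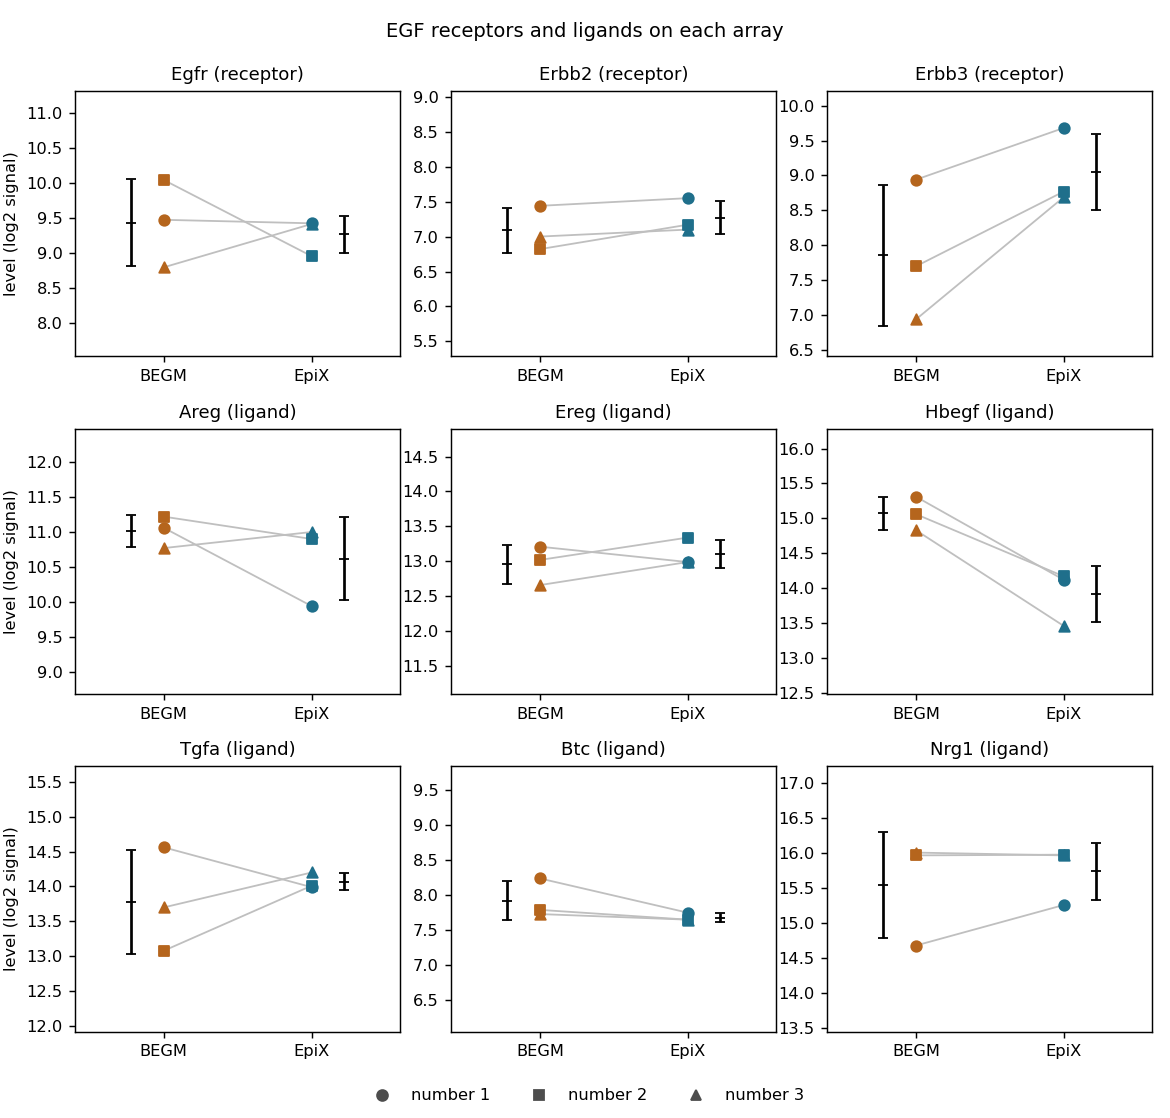
Level of each measured member on every array (log2 signal, all panels spanning the same range), with BEGM in brown and EpiX in blue, grey lines joining arrays of the same number, and black bars giving mean and SD of 3 arrays. The Hbegf arrays of EpiX, 13.46 to 14.17, all lie below those of BEGM, 14.83 to 15.31, and Erbb3 is higher in EpiX within each number while its groups overlap.

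Erbb3, the partner receptor that binds neuregulins, had levels of 8.94, 7.70 and 6.94 on arrays 1, 2 and 3 of BEGM. On arrays 1, 2 and 3 of EpiX they were 9.68, 8.77 and 8.69. The arrays of number 1 were the highest in each medium, and BEGM array 1 lay above EpiX arrays 2 and 3, so the groups overlapped. The mean of BEGM was 7.86 ± 1.01 (SD, n = 3) and that of EpiX 9.05 ± 0.55, which differ by 1.19 ± 0.52 (SE; 95% interval -0.04 to 2.41; limma adjusted p = 0.237). Within the same-numbered pairs Erbb3 was higher in EpiX by 0.74, 1.08 and 1.75. With the sample number as a block, which compares cultures taken as the same line, the SE was 0.23 and Erbb3 rose (adjusted p = 0.039), making 2 of 9 members called, Hbegf being the other, against 8.33% of all genes in that fit. With the number as a random block, at an estimated correlation of 0.13, the SE was 0.46 and Erbb3 was not called (adjusted p = 0.167). It also rose without BEGM array 1, by 1.73 (adjusted p = 0.0244), while without BEGM array 3 the difference was 0.73 (adjusted p = 0.46).

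In BEGM, Erbb3 was highest on the array where the mean of the fibroblast markers was lowest, 6.32 on array 1, and lowest where it was highest, 9.68 on array 3. In EpiX the fibroblast means were 5.38, 5.35 and 5.78, lowest on array 2, while Erbb3 was highest on array 1. The smooth muscle means in BEGM were 7.68, 8.47 and 8.34, highest on array 2. Hbegf, which fell, had the same order of BEGM arrays as Erbb3, at 15.31, 15.06 and 14.83. The mean of the 9 measured basal cell markers in BEGM was 12.97, 12.65 and 12.41, and in EpiX 13.69, 13.51 and 13.53. The part of any of these markers in the Erbb3 difference was not tested.

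Egfr, the receptor for most ligands of this group, had levels of 9.47, 10.04 and 8.79 in BEGM. In EpiX they were 9.42, 8.95 and 9.41, all inside the range of the BEGM arrays. The difference was -0.18 ± 0.32 (SE; 95% interval -0.93 to 0.58; limma adjusted p = 0.806), with pairs at -0.05, -1.09 and 0.62, and its sign turned without BEGM array 2, to 0.13. The interval leaves room for a change of up to 0.93 downwards or 0.58 upwards. Erbb2, the receptor without a known ligand, was at 7.44, 6.82 and 7.00 in BEGM, against 7.55, 7.17 and 7.10 in EpiX. Its groups overlapped, and the difference of 0.19 ± 0.21 (95% interval -0.31 to 0.69; adjusted p = 0.668) was smaller than its own error. Without BEGM array 1 it was 0.36 (adjusted p = 0.29).

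Hbegf, the heparin-binding ligand of the EGF receptor, had levels of 15.31, 15.06 and 14.83 in BEGM. In EpiX they were 14.12, 14.17 and 13.46. Every EpiX array lay below every BEGM array, and EpiX array 3 was the lowest of all. Its mean was 15.07 ± 0.24 (SD, n = 3) in BEGM and 13.92 ± 0.40 in EpiX, a fall of 1.15 ± 0.24 (SE; 95% interval -1.71 to -0.59; limma adjusted p = 0.0408), or 2.22-fold. The pairs differed by -1.19, -0.88 and -1.37. The size varied little when single arrays were left out, between -1.27 and -0.92. The call held without BEGM array 1 (adjusted p = 0.0415) and ended without any other array, at 0.138 and 0.0577 without BEGM arrays 2 and 3 and at 0.0972, 0.109 and 0.071 without EpiX arrays 1, 2 and 3. After centring of every array on its own median, which moves the median difference of all genes from 0.00 to 0.13, the fall was 1.02 (adjusted p = 0.0573).

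Areg, Ereg, Btc and Epgn lie next to each other on rat chromosome 14, with Btc, Areg, Ereg and Epgn in this order among protein-coding genes of RefSeq's GRCr8 annotation. Areg, amphiregulin, was at 11.06, 11.22 and 10.77 in BEGM, against 9.94, 10.90 and 11.00 in EpiX. EpiX array 1 stood below the other 5 arrays, which overlapped, and the difference of -0.40 ± 0.30 (SE; 95% interval -1.11 to 0.31; limma adjusted p = 0.497) shrank to -0.06 without it. Ereg, epiregulin, was at 13.21, 13.02 and 12.66 in BEGM, against 12.99, 13.34 and 12.99 in EpiX. These ranges overlapped, with a difference of 0.14 ± 0.19 (95% interval -0.31 to 0.60; adjusted p = 0.728) that turned to -0.01 without BEGM array 3 and was 0.27 without BEGM array 1. Btc, betacellulin, was at 8.24, 7.79 and 7.73 in BEGM and at 7.75, 7.65 and 7.65 in EpiX. BEGM array 1 was the highest, and the difference of -0.24 ± 0.17 (95% interval -0.65 to 0.18; adjusted p = 0.489) was -0.08 without it.

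Tgfa, transforming growth factor alpha, was spread widely in BEGM, at 14.56, 13.08 and 13.70, and narrowly in EpiX, at 13.99, 14.01 and 14.20. All EpiX arrays lay inside the BEGM range. The difference was 0.29 ± 0.35 (SE; 95% interval -0.54 to 1.12; limma adjusted p = 0.698), with pairs at -0.57, 0.93 and 0.50, and it was -0.06 without BEGM array 2 and 0.68 without BEGM array 1. Nrg1 was at 14.68, 15.97 and 16.01 in BEGM, against 15.26, 15.98 and 15.97 in EpiX. In each medium the array of number 1 was the lowest, and the other 4 arrays lay between 15.97 and 16.01. The difference between the media was 0.18 ± 0.40 (95% interval -0.75 to 1.12; adjusted p = 0.839), and it was -0.25 without BEGM array 1.

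**Figure D2:**
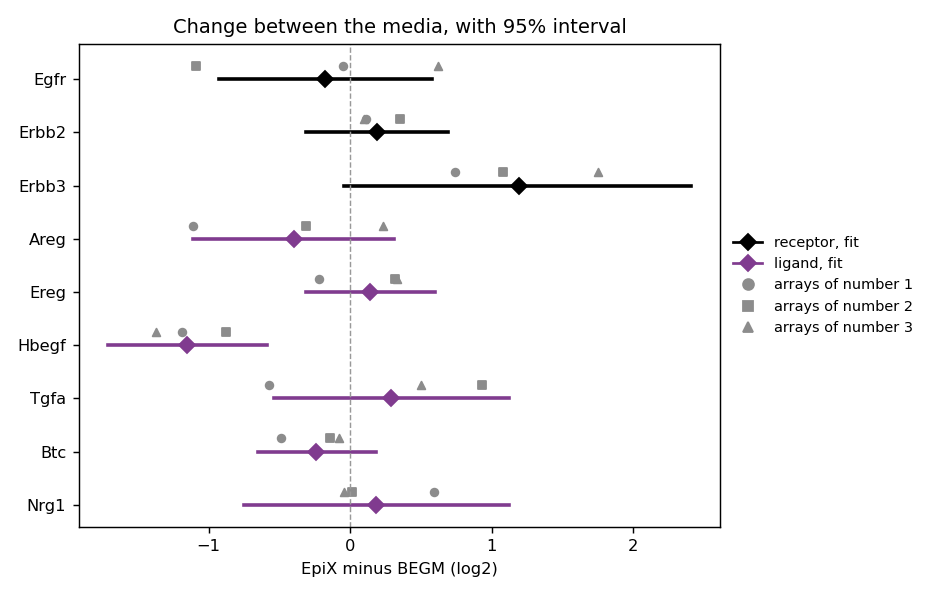
Difference between the media for each member (EpiX minus BEGM, log2), as the limma estimate (diamond; receptors black, ligands purple) with its 95% interval over 6 arrays and the 3 same-numbered pairs in grey. The interval of Hbegf, -1.71 to -0.59, leaves out 0, and that of Erbb3, -0.04 to 2.41, just includes it.

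Ligands and receptors were then set side by side through their differences, since levels of different probe sets cannot be compared. The median difference was 0.19 over the 3 receptors, -0.05 over the 6 ligands and 0.00 over all 15037 genes. The receptors had medians of 0.11, 0.35 and 0.62 in the pairs 1, 2 and 3 and the ligands -0.53, -0.07 and 0.09, so the receptor median was the higher in each pair. That order did not hold in every setting: without EpiX array 1 the medians were 0.05 for the receptors and 0.07 for the ligands. Without BEGM array 1 they were 0.36 and -0.16. The ligand median turned positive with quantile normalization (0.30 for the receptors and 0.01 for the ligands) and with median centring (0.32 and 0.08). The gap was widest between Hbegf and Erbb3, where the difference of Hbegf minus that of Erbb3 was -2.34, with pairs at -1.93, -1.96 and -3.12. Against Erbb3 all 6 ligands had the lower difference in each of 3 pairs, from -0.90 for Tgfa to -2.34 for Hbegf. Of the members Erbb3 had the highest difference and Hbegf the lowest, so these gaps restate their values and show no order of ligands against receptors. Against Egfr none of the 6 did so in all pairs, and against Erbb2 Hbegf and Btc did. These 18 ligand and receptor combinations share arrays and receptors and carry no test.

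Of the family outside the 10 genes, Erbb4, Egf, Nrg2 and Nrg4 were measured, and 0 of these 4 passed the test. The receptor Erbb4 lay between 3.37 and 3.69 over all arrays, below 4.50, the limit of the dimmest 25% of genes, and differed by -0.06 ± 0.16 (SE), with a sign that turned under median centring. Egf itself lay between 4.86 and 5.12 and differed by -0.01 ± 0.14, with a sign that turned under quantile normalization and median centring. Of the other neuregulins, Nrg2 was at 4.88, 4.56 and 4.98 in BEGM and 5.25, 5.02 and 5.15 in EpiX. Its groups did not overlap, but the difference of 0.34 ± 0.16 did not pass (limma adjusted p = 0.287). Nrg4 was at 4.86, 5.23 and 5.22 in BEGM and 6.41, 5.82 and 4.93 in EpiX, an overlapping difference of 0.62 ± 0.36 (adjusted p = 0.374).

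Among genes linked to the release of the ligands, 2 of 8 measured fell, 0 rose and 6 did not pass, with a median of -0.28. The list is not of proteases alone. It also holds Timp3, an inhibitor of such proteases (-1.06; limma adjusted p = 0.198), and Rhbdf1 (0.09) and Rhbdf2 (-0.01), which are not proteases. The median is therefore no measure of release. Over all genes 3.15% fell and 2.63% rose, and the counts of each list below are read beside these shares. Rhbdl2, a rhomboid protease of the cell membrane, was at 8.51, 8.22 and 7.27 in BEGM and 6.02, 6.17 and 6.36 in EpiX, a fall of 1.82 ± 0.32 (SE; limma adjusted p = 0.0241). The metalloproteinase Adam9 was at 13.47, 13.65 and 13.04 in BEGM and 12.02, 12.25 and 12.14 in EpiX, a fall of 1.25 ± 0.19 (adjusted p = 0.0165). For neither gene did the groups overlap. Adam17, the main protease that releases several of these ligands, was at 10.42, 9.83 and 10.34 in BEGM and 10.98, 10.77 and 10.94 in EpiX, without overlap, and its difference of 0.70 ± 0.19 did not pass (adjusted p = 0.0849). It was named after its values were seen.

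Among the genes that carry the signal inward, 1 of 16 measured fell, 0 rose and 15 did not pass, with a median of 0.05. The 1 was the adaptor Shc1, which links receptors to Ras, at 12.71, 12.82 and 13.14 in BEGM and 12.00, 12.01 and 11.92 in EpiX (-0.91 ± 0.16, SE; limma adjusted p = 0.0231). Among negative regulators of the receptors and the MAP kinases, 1 of 14 fell and 0 rose, with 13 not passing and a median of 0.00. This was Dusp6, a phosphatase of the MAP kinase ERK, at 13.03, 13.94 and 14.34 in BEGM and 10.52, 11.24 and 12.15 in EpiX (-2.46 ± 0.48; adjusted p = 0.0332). Its arrays did not overlap, and in both media it was lowest on the arrays of number 1 and highest on those of number 3.

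Of 11 genes induced by the MAP kinases, 1 fell, 1 rose and 9 did not pass, with a median of -0.33. The growth-factor-induced gene Phlda1 was at 13.98, 14.62 and 14.52 in BEGM and 12.64, 12.89 and 13.16 in EpiX, a fall of 1.48 ± 0.23 (SE; limma adjusted p = 0.0165). Vegfa, the growth factor of blood vessels, was at 14.16, 14.15 and 14.17 in BEGM and 15.20, 15.02 and 14.71 in EpiX, a rise of 0.82 ± 0.16 (adjusted p = 0.036). With the sample number as a block 2 of the 11 fell, the second being the transcription factor Etv4 (-1.43; adjusted p = 0.00936 with the block and 0.0863 without it), which was named after its values were seen. In that fit 660 of 15037 genes fell. Over all 5 lists, 5 of 53 measured genes fell and 1 rose, against 3.15% and 2.63% of all genes, with a median difference of -0.01. The calls of Rhbdl2, Adam9, Shc1, Dusp6, Phlda1 and Vegfa all ended without BEGM array 2, EpiX array 1 or EpiX array 2, with adjusted p between 0.0685 and 0.157. Without BEGM array 3, those of Dusp6 (0.0803) and Vegfa (0.0844) ended, and without EpiX array 3 those of Rhbdl2 (0.0621), Adam9 (0.0556) and Shc1 (0.0713).

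**Figure D3:**
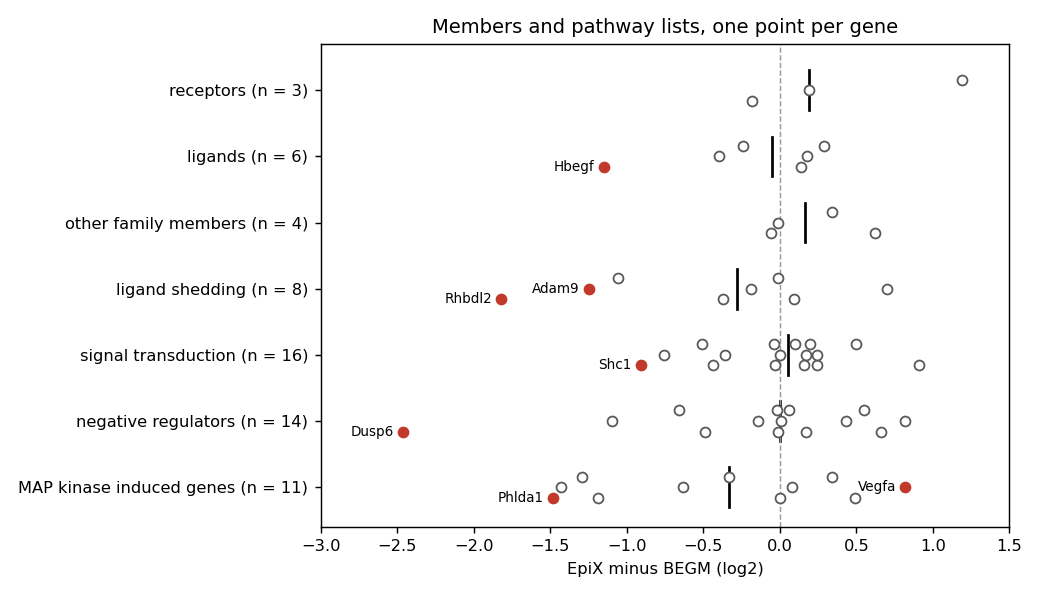
Difference between the media (EpiX minus BEGM, log2) of the members by role and of 5 pathway lists, 1 point per measured gene, with genes that passed the test in red and named, and a black line at each median. Most points lie within 1 of 0, and the 7 genes that passed are Hbegf, Rhbdl2, Adam9, Shc1, Dusp6, Phlda1 and Vegfa, of which Vegfa is the 1 higher in EpiX.

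The genes nearest in profile were found as the smallest root mean square distance over the 6 arrays, each gene centred on its own mean. For Erbb3 these were the phosphatase gene Inpp5d (distance 0.139), the Ras-binding protein gene Rassf5 (0.157) and the mitochondrial creatine kinase Ckmt1 (0.190). Inpp5d was at 9.02, 7.73 and 6.92 in BEGM and 9.76, 9.17 and 8.90 in EpiX, the same order of BEGM arrays as Erbb3. Like Erbb3 none of these 3 passed the test, with differences of 1.39, 1.30 and 1.14 and limma adjusted p of 0.171, 0.175 and 0.220. For Egfr the nearest were the junction scaffold Magi1 (0.107), Cfap68 (0.112) and Or2y13 (0.121), all highest on BEGM array 2 and differing by -0.20, -0.27 and -0.28, with none passing. Such distances over 6 arrays, out of all genes, describe likeness in these arrays only.

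**Figure D4:**
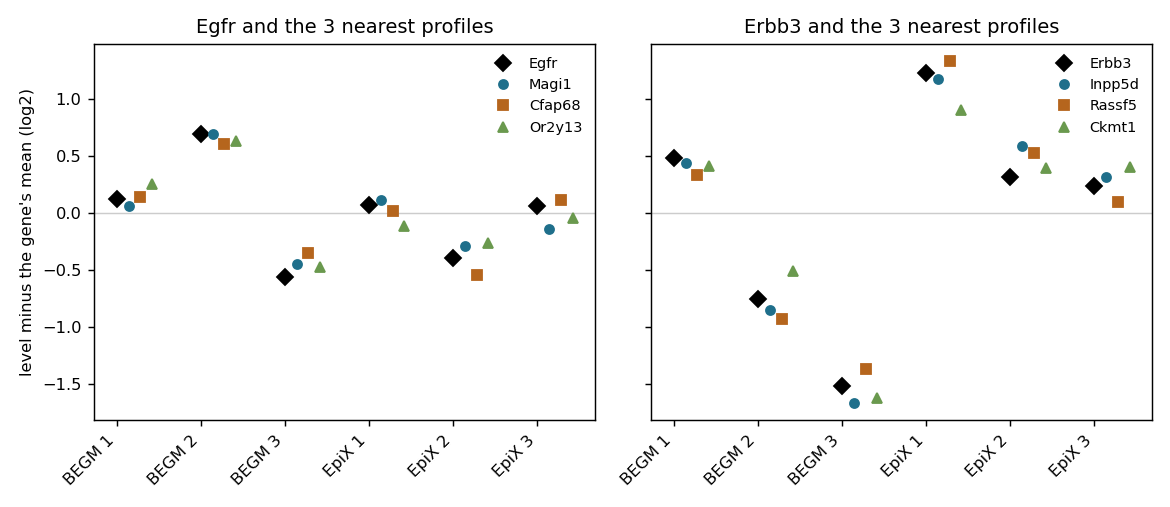
Level of Egfr (left) and Erbb3 (right) and of the 3 genes with the nearest profile on each array, as log2 signal minus the gene's mean over the 6 arrays. Egfr and its neighbours are highest on BEGM array 2, and Erbb3 and its neighbours lowest on BEGM array 3 and highest on EpiX array 1.

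The start regions of Egfr and Areg are shown because transcription of these genes starts there and because their motifs differ. Both come from RefSeq on GRCr8, as the 250 bases before the annotated start, written 5′ to 3′ on the gene's strand, with capitals marking matches to the motifs searched. Egfr lies at chr14:95378376-95378625 on the plus strand and Areg at chr14:17265642-17265891 on the minus strand.
Egfr: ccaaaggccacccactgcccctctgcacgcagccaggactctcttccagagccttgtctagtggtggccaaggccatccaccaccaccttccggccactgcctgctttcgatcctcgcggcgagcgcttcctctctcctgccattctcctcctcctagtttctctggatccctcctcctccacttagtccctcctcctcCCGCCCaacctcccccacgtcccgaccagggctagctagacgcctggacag
Areg: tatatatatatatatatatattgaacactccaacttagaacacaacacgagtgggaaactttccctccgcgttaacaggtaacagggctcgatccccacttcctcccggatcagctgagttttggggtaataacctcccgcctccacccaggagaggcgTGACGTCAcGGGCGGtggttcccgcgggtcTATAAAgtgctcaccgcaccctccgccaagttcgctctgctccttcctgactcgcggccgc
The motifs were the AP-1 element TGANTCA, the cAMP response element TGACGTCA and the SP1 box GGGCGG on both strands and the TATA box TATAAA on the gene's strand. The Areg window held a cAMP response element 91, an SP1 box 82 and a TATA box 61 bases before the start, none overlapping another. The Egfr window held 1 SP1 box, on the other strand and 51 bases before the start, and none of the rest, with 63.6% G and C against 54.4% for Areg. Among 27457 windows of this length, 1.68% held the cAMP response element, 32.3% the SP1 box, 8.35% the TATA box and 6.39% the AP-1 element. Windows were found for 7 of the 10 genes, all but Erbb3, Ereg and Nrg1, and Areg was the 1 of these 7 with the cAMP response element. The windows of the ligands Tgfa and Btc and of the receptor Erbb2, like that of Egfr, each held 1 SP1 box and none of the other motifs. The contrast of Egfr with Areg is therefore not one of receptors against ligands. As given above, neither Egfr nor Areg differed between the media beyond the spread of the arrays.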

How the data were processed

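RNA of 6 cultures was measured on Affymetrix arrays, 3 per medium, per the labels' protocols. The authors' deposited log2 values hold 1 signal for each of 24834 probe sets per array, from 2.62 to 18.66. Of tools, the Transcriptome Analysis Console is listed in the submitters' processing notes. How the values were normalized and centred, their log base and the genome build are stated in none of the sources used here, and no detection calls were used. The number of arrays limits the precision.

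Probe sets were named through GEO's platform annotation, which can be old: 15049 had 1 gene symbol, 0 several and 9785, controls included, none. The brightest probe set by mean was kept for 10 genes with several, leaving 15037 genes. All of these matched a RefSeq symbol through their gene ID.

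Limma 3.58.1 (R 4.3.3) was fitted to all genes with the medium as its only term, using lmFit and eBayes without a filter, and checked on simulated data. Tests are 2-sided. Figures were drawn with matplotlib 3.10.9. Cultures are separate but share lines, and no batch was given. Arrays with the same sample number were taken as 1 line, because the labels say that each line was divided, though they do not name the line. This number is that of the sample source; the sample titles number the arrays called 2 here as 3 and give those called 3 here no number. Deviations of same-numbered arrays correlated at 0.318, -0.014 and 0.323 over genes. Those of arrays with different numbers correlated at 0.156, -0.366, -0.127, 0.118, -0.263 and -0.163. Of these, 0.156 and 0.118 lie above the value of number 2. The pairing was not tested beyond this, and the calls with the replicate block rest on it.

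The members and lists were chosen with earlier results of these data known. Named genes were all members, other family members, up to 4 called genes per pathway list, and the 3 profiles nearest to Egfr and to the member with the largest difference. Alternatives were a replicate block, a random block, quantile normalization, median centring, a filter on dim genes, weighted arrays, a trended and robust variance, averaged probe sets, and leaving out arrays.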

Additional observations from a re-analysis of the deposited data

How the results depend on the processing

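Hbegf stayed lower in EpiX under all 17 alternatives, from -1.28 to -0.92, and passed in 8 of them. Its groups did not overlap, so leaving out arrays could not turn its sign. The blocks keep the difference as it is, and so does averaging probe sets, with 1 probe set per member. These settings therefore say nothing on the sign. Erbb3 stayed higher in all 17, from 0.73 to 1.73, and passed in 3, namely with the replicate block, without BEGM array 1, and without the pair of number 1 (adjusted p = 0.038). Its sign could not turn under the blocks, under averaged probe sets or without a pair, since all 3 pairs were higher in EpiX. The replicate block gave 2 calls among the members, Hbegf (adjusted p = 0.0196) and Erbb3, and 1252 over all genes. It added Etv4 and changed no other call among the members and the 5 pathway lists. Median centring gave 0 members by limma (Hbegf adjusted p = 0.0573). The count of members ran from 0 to 2 and that of all genes, 869 at first, from 101 to 2089 when single arrays were left out. Array weights gave 1987 genes. Leaving out the pair of number 1, 2 or 3, the counts were 1351, 0 and 264 genes. Without number 2, 0 members passed by limma, with Hbegf at an unadjusted p of 0.015 and 1582 genes under 0.05, and without number 3, 0 members passed. Fewer arrays also give the test less to work with.

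Signs turned for genes that never passed. Without both arrays of number 2 the difference was 0.28 for Egfr and -0.034 for Tgfa, and without number 1 it was -0.016 for Nrg1. Leaving out single arrays gave -0.50 to 0.13 for Egfr, -0.25 to 0.42 for Nrg1, -0.063 to 0.68 for Tgfa and -0.0065 to 0.27 for Ereg. Erbb4 was at 0.065 with median centring, 0.011 with array weights and 0.016 without number 1. Egf was at 0.061 with quantile normalization, 0.12 with median centring, 0.0029 with array weights and 0.071 without number 3, and leaving out single arrays gave -0.069 to 0.062. The cause was not tested. The medians of receptors and ligands moved by less than their spread between pairs. Without detection calls, dim genes such as Erbb4 may lie at background.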
